A study of Mus musculus with 185 samples.

Results

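Cdkn1a, Dino and 8 further genes that the transcription factor p53 switches on were followed through the brains of fasted, chow-fed and high-fat-fed mice. The 10 genes are Cdkn1a, Dino, Mdm2, Ccng1, Phlda3, Bbc3, Trp53inp1, Eda2r, Zmat3 and Bax, and all 10 were found by gene name among the 57010 genes of the count matrix. They were put together because Cdkn1a and Dino stood out after 24 h of fasting, so their values from the 24 h comparison are a description with no p-value, and calls among them at 24 h are only counted beside the share over all genes. Genes that are not members were tested at 24 h. The comparisons at 16 h come from other mice and were tested for all genes.

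The mice were young adult male C57BL/6 J animals. In the 16 h study they were housed 2 per cage and kept on chow, fasted, or switched to a high-fat diet (HFD), with 6 mice in each group. In the 24 h study they were housed singly and kept on chow (9 mice) or fasted (10 mice). Bulk RNA-seq was made from 5 brain areas of each mouse: both colliculi (superior and inferior), hippocampus and hypothalamus, with prefrontal cortex at 16 h or zona incerta at 24 h.

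The p53 protein is held at a low level by Mdm2, a ubiquitin ligase that marks it for destruction. When DNA is damaged or a cell is stressed, p53 is released, binds paired decamers in DNA, and raises genes that halt the cell cycle, repair DNA or start apoptosis. Cdkn1a encodes p21, an inhibitor of cyclin-dependent kinases and the best known of these targets, and it is also raised by other transcription factors, among them FoxO proteins and the glucocorticoid receptor. Dino is a long noncoding RNA made at the Cdkn1a locus that has been described as a partner of p53.

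The matrix carries 185 columns under 37 headings, 1 heading per mouse, so columns could be tied to mice but not to brain areas. Counts of the 5 columns of a mouse were added up, and levels are CPM of that sum (counts per 1000000 counts). Totals ran from 57962237 to 161577364 counts per mouse, and 8 of the 185 columns held fewer than 1000000 counts. The sample labels mark 12 of 90 libraries at 16 h and 29 of 95 at 24 h as failing a quality check. In the 24 h study 14 of these came from chow mice and 15 from fasted mice, and 24 were all those run on the SP flowcell. Columns could not be matched to libraries, so the sums include them. Reads of the mitochondrial genome made up 3.78% to 4.98% of the counts in 16 h mice and 8.57% to 16.7% in 24 h mice. In bulk tissue, fewer cells of a type and less RNA per cell cannot be told apart.

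The labels of 3 mice of the 24 h study carry doubt. The sample notes place the superior colliculus of chow mouse 1423 and of fasted mouse 1454 in each other's tubes. The study's methods name the same pair and describe a correction of its labels. The names of the read files instead exchange that area between 1423 and fasted mouse 1455, whose superior colliculus library is marked as failing a check by principal components. In single columns, Cdkn1a stood at 49.5 CPM in 1 of the 5 columns of mouse 1423 and between 3.54 and 7.63 CPM in the other 4. In mouse 1454, 1 column stood at 2.07 CPM and the other 4 between 24.4 and 117 CPM. The 5 columns of mouse 1455 lay between 26.0 and 66.8 CPM, with none standing apart. The fitted differences of the members and the counts of the gene lists at 24 h are therefore given with all mice and without these 3 animals.

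**Figure D1:**
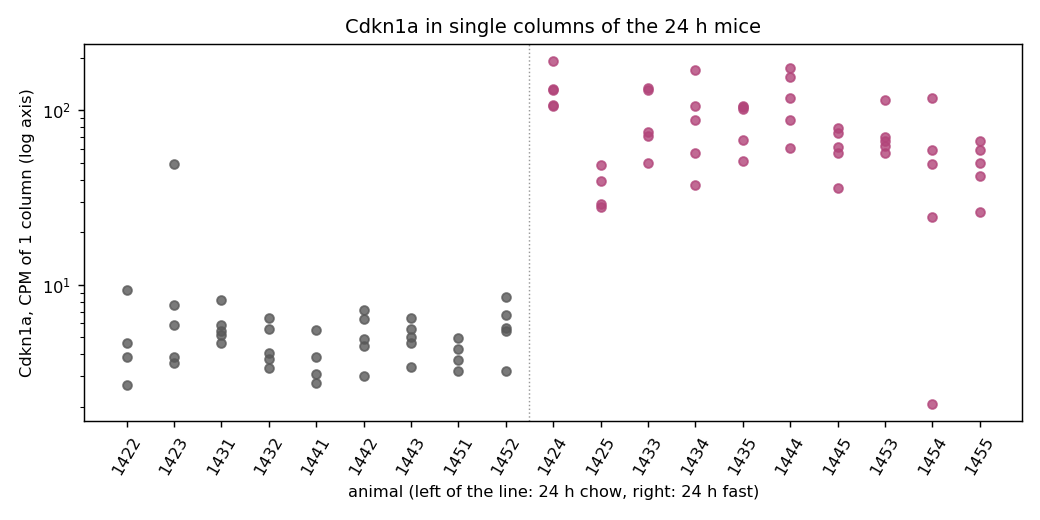
Cdkn1a in each column with at least 1000000 counts, in CPM on a log axis, for the 9 chow and 10 fasted mice of the 24 h study (1 point per column). A single column of chow mouse 1423, at 49.5 CPM, lies among the fasted columns, and a single column of fasted mouse 1454, at 2.07 CPM, lies among the chow columns.

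Sequences that match the p53 consensus are shown because they mark where such letters stand near the 5′ end of the genes. The search covered 2500 bases on either side of the 5′ end of each gene in GENCODE on GRCm39, on both strands, for paired p53 decamers with a spacer of 0 to 13 bases. Such a pair was present in 1.46% of 21662 protein-coding genes and near Cdkn1a, Trp53inp1 and Zmat3 among the 10. A second search, chosen later, allowed up to 2 mismatches outside the core of the decamers and no spacer. It matched in 2.98% of genes and near Cdkn1a, Ccng1 and Zmat3. In the lines that follow, capitals mark the matched pair, spacer included, and all are written 5′ to 3′ on the plus strand.
Cdkn1a, no spacer, 1 mismatch, chr17:29309882-29309941: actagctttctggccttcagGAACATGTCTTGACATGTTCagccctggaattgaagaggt
Cdkn1a, with spacer, chr17:29309860-29309931: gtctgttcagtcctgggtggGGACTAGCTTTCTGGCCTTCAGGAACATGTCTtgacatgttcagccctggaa
Trp53inp1, with spacer, chr4:11155092-11155152: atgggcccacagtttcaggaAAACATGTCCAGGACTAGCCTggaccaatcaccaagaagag
Zmat3, no spacer, no mismatch, chr3:32418460-32418519: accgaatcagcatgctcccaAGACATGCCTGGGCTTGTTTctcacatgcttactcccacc
Ccng1, no spacer, 1 mismatch, chr11:40645743-40645802: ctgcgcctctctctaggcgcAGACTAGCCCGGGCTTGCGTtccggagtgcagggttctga
The Cdkn1a matches share a decamer. The site without spacer is centred 24 bases before the outermost start of the gene and 2826 bases before the start of its canonical transcript. The Zmat3 match lies 1674 bases and the Ccng1 match 376 bases inside the gene, and the Trp53inp1 match lies 1290 bases before its start. In the same windows the letters ACANNNTGT, the core of the glucocorticoid response element, were found near all 10 members, 1 to 5 times each, and in 77.4% of all protein-coding genes. Cdkn1a held them 1 time and Trp53inp1 5 times. The FoxO letters TGTTTAC were found near 7 of the 10 members and in 48.4% of all protein-coding genes. Trp53inp1 held them 3 times, Cdkn1a and Mdm2 2 times each, and Dino, Ccng1 and Phlda3 not at all. A match is a run of letters and does not show binding. A gene without a match may still carry a p53 site, since sites with more mismatches or farther away were not searched.

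After 24 h of fasting, Cdkn1a was higher in every fasted mouse than in every chow mouse. Its level in chow mice had a lowest value of 3.34, a median of 4.81 and a highest value of 20.3 CPM, the last in mouse 1423. In fasted mice the lowest value was 36.8, the median 77.2 and the highest 129 CPM. The mean was 6.36 ± 5.27 CPM on chow (SD, n = 9) and 79.3 ± 30.35 CPM in fasted mice (SD, n = 10). The fitted difference was 3.71 ± 0.35 (SE) on the log2 scale, a 13.1-fold higher level. Without the 3 doubtful animals the chow mice reached no more than 6.02 CPM and the difference was 4.30 ± 0.23, or 19.7-fold. Of all genes tested, 0.714% had fasted mice all above chow mice.

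**Figure D2:**
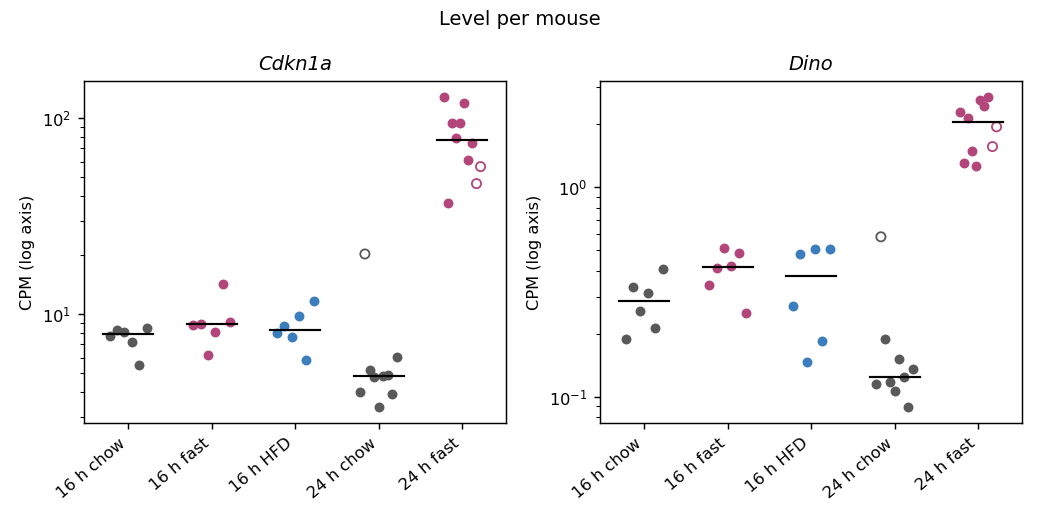
Cdkn1a and Dino in each of the 37 mice, in CPM on log axes, by group (1 point per mouse, line at the median, open circles for mice 1423, 1454 and 1455). Fasted mice of the 24 h study, from 36.8 CPM for Cdkn1a and from 1.26 CPM for Dino, lie above all other mice, and the 16 h groups overlap.

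The difference was seen in single columns too. Among columns with at least 1000000 counts, 38 of 49 fasted columns lay above the highest of 42 chow columns when all mice were kept. Without mice 1423, 1454 and 1455, all 39 fasted columns, the lowest at 28.0 CPM, lay above all 37 chow columns, the highest at 9.36 CPM. The columns of a mouse share that mouse and are not replicates. Since every remaining fasted mouse had all its columns above every chow column, the higher Cdkn1a level was not limited to 1 column per mouse.

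Dino followed Cdkn1a at a much lower level. Chow mice of the 24 h study had a lowest value of 0.0891, a median of 0.124 and a highest value of 0.581 CPM, again in mouse 1423. Fasted mice had a lowest value of 1.26, a median of 2.04 and a highest value of 2.71 CPM, and the groups did not overlap. The fitted difference was 3.47 ± 0.30 on the log2 scale with all mice and 4.00 ± 0.20 without the 3 doubtful animals. These values rest on 8 to 64 reads per chow mouse and 109 to 358 reads per fasted mouse.

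Dino cannot be read apart from Cdkn1a in these counts. It lies on the minus strand at chr17:29312390-29313435 (GRCm39), inside Cdkn1a on the plus strand at chr17:29309936-29319701, and 504 of its 1046 bases overlap Cdkn1a exons. The kit marked the strand, but the strand used for counting is not given in the sources used here. There were 125 genes of at least 200 bases wholly inside exons of a well-read gene on the other strand. Of these, 90 had 0 reads in all columns. Genes that are not expressed would also have 0 reads, so this count does not tell which strand was counted. If reads of both strands were counted without regard to strand, reads from unspliced Cdkn1a RNA could be counted as Dino, which was not tested. Dino reads came to 2.81% ± 0.470 of the Cdkn1a reads in 24 h chow mice (SD, n = 9) and to 2.74% ± 0.946 in 24 h fasted mice (SD, n = 10), a difference smaller than the spread between mice. At 16 h the share was higher, at 3.77% ± 0.849 on chow, 4.70% ± 1.97 after fasting and 3.94% ± 1.37 after HFD (SD, n = 6 each).

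The remaining 8 targets differed by at most 0.84 on the log2 scale at 24 h. Of the 10 members, 4 had an adjusted p under 0.05 in edgeR's test across all genes, all of them higher, where 11.4% of all genes passed in either direction and 5.78% were higher. The members were chosen on this comparison, so nothing is read from that count. The members past this threshold were Cdkn1a, Dino, Trp53inp1 and Mdm2. Over the 8 genes other than Cdkn1a and Dino, the median difference was 0.10 on the log2 scale with all mice and also without the 3 doubtful animals, against -0.004 over all genes tested.

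Trp53inp1 encodes a stress protein of the nucleus and of autophagosomes that aids p53. Its level in chow mice had a lowest value of 18.6, a median of 22.9 and a highest value of 28.7 CPM. Fasted mice had a lowest value of 30.5, a median of 39.5 and a highest value of 52.6 CPM, so the groups did not overlap. The fitted difference was 0.84 ± 0.10 on the log2 scale, and 0.93 ± 0.10 without the 3 doubtful animals. In single columns the groups overlapped, with 9 of 49 fasted columns above all chow columns.

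Mdm2, the negative regulator of p53 and itself a p53 target, was slightly higher. Chow mice had a lowest value of 38.6, a median of 43.7 and a highest value of 47.1 CPM. Fasted mice had a lowest value of 44.7, a median of 48.0 and a highest value of 57.1 CPM, so the groups overlapped. The fitted difference was 0.26 ± 0.05 on the log2 scale, and 0.29 ± 0.05 without the 3 doubtful animals. With equal weight per column (limma on the mean log2 CPM) it was 0.17, and Mdm2 then did not have an adjusted p under 0.05.

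The genes of apoptosis among the 10 overlapped between diets at 24 h. Bbc3, which encodes the BH3-only protein PUMA, ran from 2.91 to 6.06 CPM on chow and from 4.31 to 6.70 CPM in fasted mice, with a difference of 0.27 ± 0.11 on the log2 scale. Leaving out each mouse in turn gave 0.22 to 0.33. Among these fits, Bbc3 had an edgeR adjusted p under 0.05 only without chow mouse 1422 (0.33), and nothing is read from this. Bax, which encodes a pore-forming protein of the mitochondrial membrane, ran from 7.98 to 9.50 CPM on chow and from 7.29 to 9.45 CPM in fasted mice, a difference of 0.03 ± 0.06. Eda2r, a receptor of the tumour necrosis factor family, ran from 0.508 to 0.706 CPM on chow and from 0.322 to 0.825 CPM in fasted mice, a difference of -0.18 ± 0.13. With the 3 doubtful animals left out, the differences were 0.30 ± 0.11 for Bbc3, 0.02 ± 0.07 for Bax and -0.13 ± 0.14 for Eda2r.

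The other members overlapped between diets as well. Ccng1, which encodes cyclin G1, ran from 47.8 to 61.2 CPM on chow and from 46.2 to 74.1 CPM in fasted mice, a difference of 0.18 ± 0.10. Phlda3, which encodes a repressor of Akt signalling, ran from 19.7 to 36.9 and from 20.1 to 36.2 CPM, a difference of -0.06 ± 0.12. Zmat3, which encodes an RNA-binding zinc finger protein, ran from 125 to 180.0 and from 128 to 182 CPM, a difference of 0.02 ± 0.07. In the mice whose labels carry no doubt these were 0.19 ± 0.10 for Ccng1, -0.04 ± 0.14 for Phlda3 and 0.01 ± 0.09 for Zmat3.

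**Figure D3:**
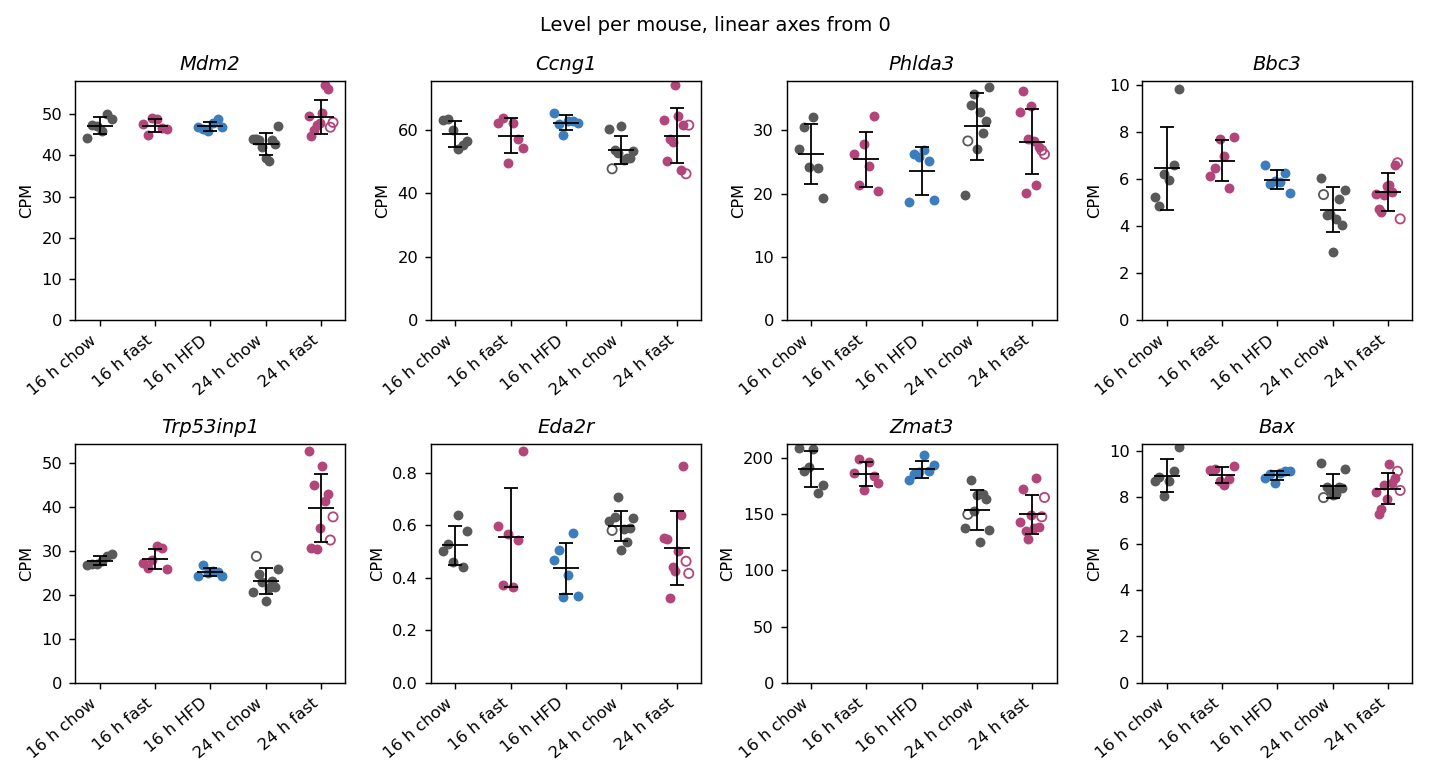
The other 8 members in each of the 37 mice, in CPM on linear axes from 0, by group (1 point per mouse, bar at the mean with its SD, open circles for mice 1423, 1454 and 1455). At 24 h, Trp53inp1 lies at 30.5 CPM or more in fasted mice and at 28.7 CPM or less in chow mice, and in the other 7 genes the diets overlap.

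Per kilobase of exon, Cdkn1a was among the lower members on chow and among the highest in fasted mice. The length used was that of all annotated exons of a gene merged over its transcripts, 6045 bases for Cdkn1a. Which transcripts were expressed was not known, so the order between genes is approximate. On chow at 24 h it was 1.05 CPM per kb, near Bbc3 at 0.983 and below Trp53inp1 at 3.15, Bax at 4.58, Mdm2 at 5.55, Phlda3 at 11.8, Ccng1 at 12.2 and Zmat3 at 13.4 CPM per kb. In fasted mice it was 13.1 CPM per kb, beside Zmat3 at 13.1 and Ccng1 at 13.2 CPM per kb. Without the 3 doubtful animals Cdkn1a was 0.765 CPM per kb on chow and 14.3 in fasted mice. Dino went from 0.171 to 1.89 CPM per kb and Eda2r was lowest in both diets, at 0.0798 and 0.0686 CPM per kb.

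Trp53 itself, which encodes p53, is not a member. It ran from 14.8 to 19.3 CPM on chow and from 17.4 to 21.6 CPM in fasted mice at 24 h. Its difference of 0.19 ± 0.05 on the log2 scale passed edgeR's test (adjusted p = 0.0073), and also without the 3 doubtful animals (0.20 ± 0.05, edgeR adjusted p = 0.0168).

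At 16 h, none of the 10 members passed the test after fasting or after HFD. In edgeR's test, 0.0% of 29746 genes passed in either comparison, while 2267 genes after fasting and 2914 after HFD had an unadjusted p under 0.05. By chance alone a share of 0.05 of genes is expected under that limit. Diet was given by cage and this fit took cage mates as independent. With the cage as the unit no member passed either. DESeq2 called 19 and 5 genes, none of them members. Cdkn1a had a lowest value of 5.48, a median of 7.93 and a highest value of 8.49 CPM on chow. Fasted mice had values of 6.19, 8.86 and 14.2 CPM, and HFD mice values of 5.83, 8.33 and 11.6 CPM. The groups overlapped.

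The difference for Cdkn1a at 16 h was 0.31 ± 0.18 on the log2 scale after fasting (edgeR adjusted p = 0.703) and 0.22 ± 0.18 after HFD (edgeR adjusted p = 0.688). Without mouse 11, the highest of the fasted mice, the fasting difference was 0.15. By round of cages, the 3 fasting differences in mean log2 CPM were 0.15, -0.11 and 0.74, and the 3 HFD differences were 0.06, 0.18 and 0.27. The HFD difference was -0.01 with equal weight per column.

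For Dino the difference at 16 h was 0.53 ± 0.28 after fasting (edgeR adjusted p = 0.691) and 0.33 ± 0.29 after HFD (edgeR adjusted p = 0.708). By round of cages it was 0.59, 0.71 and 0.25 after fasting and 0.53, -0.05 and 0.06 after HFD. Trp53inp1 differed by 0.04 ± 0.04 after fasting (edgeR adjusted p = 0.841) and by -0.11 ± 0.04 after HFD (edgeR adjusted p = 0.503). The other 7 members ran from -0.03 to 0.10 after fasting and from -0.23 to 0.12 after HFD. Both comparisons share the same 6 chow mice.

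**Figure D4:**
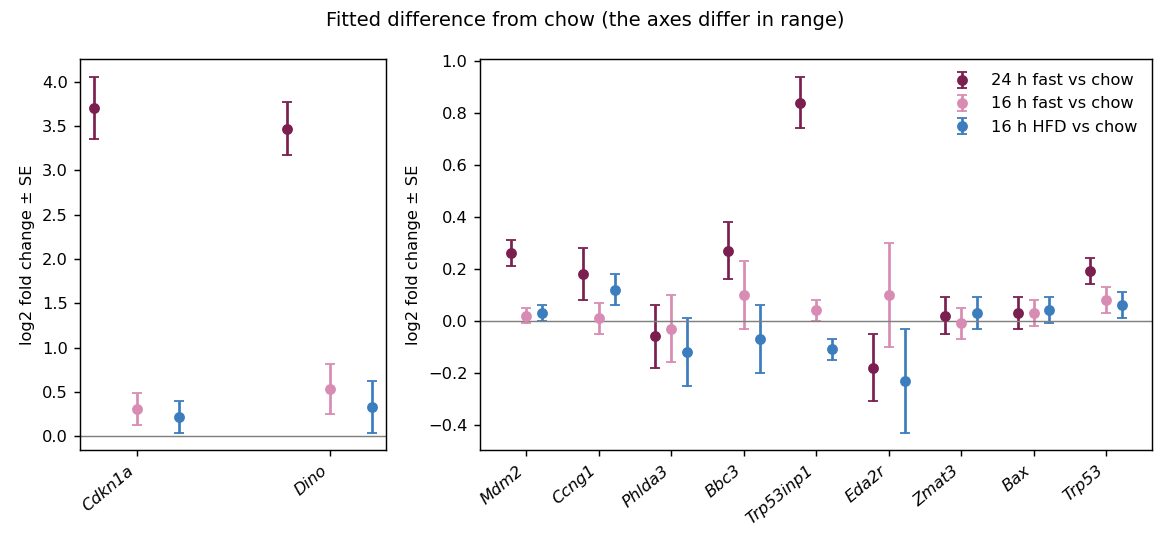
Fitted log2 fold change from chow with its SE for the 10 members and Trp53 in the 3 comparisons (dark points 24 h fasting, light points 16 h fasting, blue points 16 h HFD, axes of different range in the left and right panels). Cdkn1a at 3.71 and Dino at 3.47 stand far above Trp53inp1 at 0.84 and Mdm2 at 0.26 after 24 h, and at 16 h all points lie between -0.23 and 0.53.

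The fasting effect at 24 h minus that at 16 h was 3.41 ± 0.43 on the log2 scale for Cdkn1a, 2.94 ± 0.43 for Dino, 0.80 ± 0.13 for Trp53inp1 and 0.24 ± 0.06 for Mdm2. These 4 of the 10 passed an adjusted p under 0.05 in 1 edgeR fit over the 5 groups, where 1.7% of 30849 genes passed. The difference contains the 24 h comparison that chose the members, so nothing is read from the count. Duration, housing, clock time, the areas sequenced, the sequencing runs and the read length changed together between the studies and cannot be told apart. The mean weight change of fasted mice was -3.72% at 16 h and -19.5% at 24 h.

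A wider list of 61 p53 targets, relatives and regulators that are not members showed a mixed picture at 24 h. Of 59 tested, 8 rose and 2 fell in edgeR's test, against 5.78% and 5.62% of all genes. The list's median difference was 0.07 on the log2 scale, against -0.004 over all genes. Without the 3 doubtful animals 9 rose and 3 fell, with the same median. With equal weight per column, 4 rose and 1 fell. At 16 h none of the 59 passed after either diet, with medians of 0.03 after fasting and 0.02 after HFD.

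Among the apoptosis genes of that list, 2 of 11 rose. Fas, a death receptor, rose by 1.15 ± 0.09 and Pmaip1, which encodes the BH3-only protein NOXA, rose by 0.91 ± 0.24 on the log2 scale. Among the genes of cell cycle and growth, 2 of 13 rose: Sesn1, which encodes a sestrin that restrains mTORC1, by 0.49 ± 0.06, and Btg2, an antiproliferative gene, by 0.44 ± 0.11. Among the genes of DNA repair and metabolism, 3 of 13 tested rose, of which Dcxr, which encodes a xylulose reductase, had a difference of 0.36 ± 0.09. Trp63, a relative of p53, fell by 0.58 on the log2 scale and Tap1, a peptide transporter, fell by 0.35. Each of these 7 named genes passed edgeR's test without the 3 doubtful animals as well.

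No other inhibitor of cyclin-dependent kinases passed the test at 24 h. Of 7 other genes that carry the name Cdkn, 6 were tested, with differences from -0.15 (Cdkn3) to 0.27 on the log2 scale. Cdkn1b, which encodes p27, differed by 0.12 ± 0.05, and Cdkn1c, which encodes p57, by -0.07 ± 0.27. None of 12 proliferation genes passed either, with a median difference of 0.10. Of all genes tested 11.4% passed, so with lists this short nothing is read from these counts. No gene of either list passed without the 3 doubtful animals, with medians of 0.11 for the inhibitors and 0.14 for the proliferation genes.

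A list of 22 genes known to respond to glucocorticoids or FoxO factors is set beside these. All 22 passed at 24 h, each higher, with a median of 1.11 on the log2 scale against -0.004 over all genes. Without the 3 doubtful animals 21 of 22 passed. At 16 h none passed, and the medians were 0.19 after fasting and 0.03 after HFD. The list was put together with results of these mice known and is not independent evidence of a direction.

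**Figure D5:**
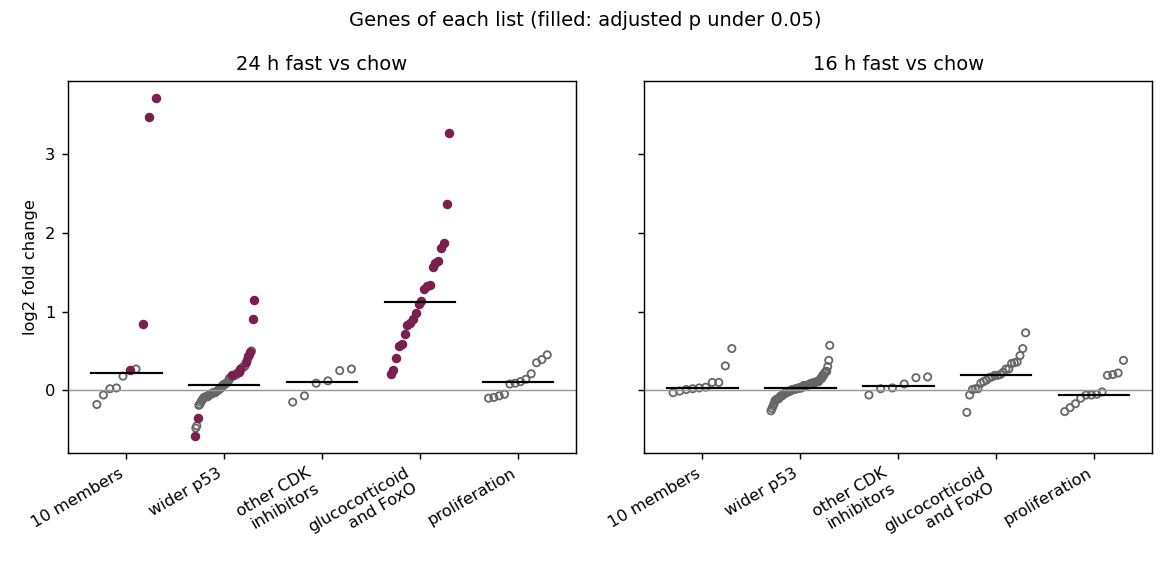
Fitted log2 fold changes of the genes of 5 lists after 24 h and 16 h of fasting (1 point per gene, filled where edgeR's adjusted p is under 0.05, line at the median). At 24 h the medians are 0.22 for the 10 members, 0.07 for the wider p53 list and 1.11 for the glucocorticoid and FoxO list, and at 16 h no point is filled. Members and lists were chosen with earlier results of these data known, so their medians are not a like comparison.

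Markers of cell types also differed at 24 h. Of 42 marker genes, 2 rose and 11 fell in edgeR's test, against 5.78% and 5.62% of all genes. Without the 3 doubtful animals 2 rose and 9 fell. The astrocyte genes Aqp4, which encodes a water channel, and Gja1, which encodes a gap junction protein, fell by 0.85 and 0.25 on the log2 scale. Of the 5 astrocyte genes, 3 had a positive difference, none of which passed, and the median of the 5 was 0.14. Summed astrocyte markers ran from 3220 to 4260 CPM on chow and from 3220 to 4915 CPM in fasted mice. Summed microglial markers ran from 115 to 159 CPM on chow and from 92.9 to 150 CPM in fasted mice. Summed mural and meningeal markers ran from 197 to 326 CPM and from 125 to 213 CPM. Of the 5 genes of each kind, 3 microglial and 4 mural and meningeal genes fell. Summed endothelial markers ran from 175 to 289 and from 146 to 236 CPM, and neuronal markers from 2196 to 3617 and from 2518 to 3370 CPM. Summed choroid plexus and ependyma markers ran from 36.3 to 1776 and from 37.8 to 4101 CPM, and the diets overlapped for each of these sums. The part of these differences in the levels of the 10 genes was not tested.

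The 14 other genes tested within 200 kb of the start of Cdkn1a were compared at 24 h in the same way, Dino left aside. None passed edgeR's test, with differences from -1.04 to 0.43 on the log2 scale. Of all genes tested 11.4% passed, so with 14 genes nothing is read from that count. Srsf3, a splicing factor gene, differed by -0.02 ± 0.05, Stk38, a kinase gene, by -0.13 ± 0.05, and Cpne5, a copine gene, by 0.43 ± 0.32. Trp53cor1, a noncoding RNA next to Cdkn1a that p53 is known to induce, differed by 0.09 ± 0.11. None of these 4 genes passed without the 3 doubtful animals.

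Genes that varied like Cdkn1a among mice of the same group were sought over all 37 mice. Each mouse's log2 CPM was taken as a deviation from its group mean, over 13586 genes whose log2 CPM averaged 2 or more. The highest Pearson correlations were those of Pnpla2 at 0.809, Sult1a1 at 0.772, Plin4 at 0.765, Ccn2 at 0.735 and Trp53inp1 at 0.728. Pnpla2 encodes a triglyceride lipase and Plin4 a lipid droplet protein. The lowest were Gm16168 at -0.666, Insc at -0.657, Cxcl12 at -0.649, Serinc5 at -0.648 and Dnaaf9 at -0.643. The ranking moved with the 3 doubtful animals. Over the other 34 mice the highest were Pnpla2 at 0.797, Setdb2 at 0.735, Bcl2l1 at 0.723, Phactr3 at 0.717 and Nt5c3 at 0.706, so Pnpla2 was in both rankings, while Plin4 stood at 0.528 and Trp53inp1 at 0.663. The lowest were then Gm16168 at -0.718, Gm4221 at -0.709, Col11a2 at -0.691, Galnt4 at -0.685 and Serinc5 at -0.682.

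Among the members, Dino had a correlation of 0.673 (0.438 without the 3 animals), Mdm2 of 0.325, Ccng1 of 0.288, Bbc3 of 0.174, Bax of 0.169, Phlda3 of 0.090, Eda2r of -0.035 and Zmat3 of -0.111. Without the 3 animals these were 0.228 for Mdm2, 0.473 for Ccng1, 0.111 for Bbc3, 0.431 for Bax, 0.138 for Phlda3, -0.114 for Eda2r and -0.138 for Zmat3. Points of 1 mouse share its libraries and depth, so these values are a description.

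Cdkn1a was compared with body weight change inside each of the 5 groups. None of the 5 relations passed after adjustment. In the 10 fasted mice at 24 h, Pearson's r was -0.391 (permutation p = 0.265, Benjamini-Hochberg adjusted p = 0.332) and Spearman's rho was -0.248 (permutation p = 0.495, adjusted p = 0.705). Leaving out the 2 mice farthest from the median weight change, 1425 and 1455, turned r to 0.356. The labels of fasted mice 1454 and 1455 carry doubt, and no value was computed without both. In the 6 fasted mice at 16 h, r was -0.706 (exact permutation p = 0.0764, adjusted p = 0.332) and rho was -0.600 (exact permutation p = 0.242, adjusted p = 0.705), and r without the 2 farthest mice was 0.518. Those 2 mice, 11 and 12, had weight changes of -7.52% and -6.49% and shared 1 cage, so they are not independent. With equal weight per column r was -0.926 in this group (exact permutation p = 0.0125, adjusted p = 0.0625), and -0.00726 without the same 2 mice. In the 10 fasted mice at 24 h it was then -0.225 (permutation p = 0.534, adjusted p = 0.673).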

How the data were processed

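The authors aligned reads of rRNA-depleted libraries to GRCm39 with STAR 2.7.3a and deposited raw gene counts, neither normalized nor filtered. The annotation release and the strand counted are not given in the sources used here. GENCODE vM39 named 56310 of 57010 genes. Columns were assigned to mice by their headings and added up per mouse. Animals, not columns, were the replicates. Members, lists and tests were chosen with earlier results of these data known.

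The test was the quasi-likelihood F test of edgeR 4.0.16 (R 4.3.3) after filterByExpr and TMM scaling, with Benjamini-Hochberg adjustment over all genes tested and a threshold of 0.05. The 3 diets at 16 h shared 1 fit. The SE is the log2 fold change divided by the root of F. Alternatives used DESeq2 1.42.0, limma 3.58.1, other size factors, filters, columns, covariates and mice. On simulated counts at 24 h (28716 genes), 42 of 50 genes changed 1.5-fold and 50 of 50 changed 2-fold were recovered. At 16 h (29503 genes) these were 36 and 47 of 50. With 200 genes changed in each simulation, 19 unchanged genes were called at 24 h and 8 at 16 h. The changed genes were drawn from those averaging more than 1 CPM, so genes read less, such as Eda2r, are not covered. Shared cages were not simulated. Named genes are the 10 members, Trp53, tested genes within 200 kb of Cdkn1a, up to 5 risen and 5 fallen genes of the wider p53 list whose log2 CPM averaged 0 or more, and the 5 genes most and least like Cdkn1a. Further genes of lists and neighbours were named after their values were seen. Depth limits Dino and Eda2r most.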

Additional observations from a re-analysis of the deposited data

Results flagged for a closer look

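Cdkn1a in 24 h chow mice was marked because mouse 1423, at 20.3 CPM, lay far above the other 8 chow mice, and Dino because the same mouse stood at 0.581 CPM. This is the mouse whose superior colliculus is noted as exchanged. Cdkn1a in 16 h fasted mice was marked for mouse 11 at 14.2 CPM, whose 4 columns with at least 1000000 counts lay between 12.1 and 16.6 CPM. Bbc3 in 16 h chow mice was marked for mouse 6 at 9.83 CPM. These are 4 of 50 combinations of gene and group, and chance marks about 1 in 20.

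The fasting difference at 24 h minus that at 16 h was 3.41 on the log2 scale for Cdkn1a, 2.94 for Dino, 0.80 for Trp53inp1 and 0.24 for Mdm2. These values contain the 24 h comparison that chose the members, so they are a description and no test is read.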

How the results depend on the processing

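The log2 fold change of Cdkn1a at 24 h lay between 3.66 and 4.30 over 9 alternatives and between 3.60 and 4.18 when each mouse was left out in turn. Over the same 9, Dino lay between 3.04 and 4.00, Trp53inp1 between 0.74 and 0.93 and Mdm2 between 0.17 and 0.29. Limma with equal weight per column called 1401 genes at 24 h against 3307. On the wider p53 list it called 4 higher and 1 lower against 8 and 2. Of the 10 members it called 3 at 24 h, Cdkn1a, Dino and Trp53inp1, and not Mdm2. It also gave differences of -0.01 for Cdkn1a and -0.03 for Zmat3 after 16 h of HFD, and of -0.02 for Ccng1 and 0.03 for Phlda3 after 16 h of fasting, each with the other sign than in the sums, as did Phlda3 (0.01) and Zmat3 (-0.06) at 24 h. The cause was not tested. With no filter on low counts, 1 gene of the wider list was lower. DESeq2 called 19 genes after 16 h of fasting and 5 after HFD, against 0 and 0. Leaving out each mouse gave 2685 to 3725 genes at 24 h, 0 to 0 genes at 16 h, and 8 to 11 higher and 1 to 3 lower genes on the wider list. Leaving out single mice gave -0.01 to 0.06 for Zmat3 at 24 h, and at 16 h it moved small fasting differences to or across 0 for Mdm2 (0.00 to 0.04), Ccng1 (-0.02 to 0.06), Phlda3 (-0.11 to 0.04), Zmat3 (-0.05 to 0.02), Eda2r (-0.10 to 0.21) and Bax (0.00 to 0.06), and after HFD for Bbc3 (-0.15 to 0.08) and Zmat3 (-0.01 to 0.06). Keeping only columns of 1000000 counts or more in which a draw of 500000 would hold 16000 genes was an alternative chosen after seeing the data, and it changed no call of a member. The brain area of a column was not known, so no result is given by area.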

Other observations

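Within the 16 h mice, Cdkn1a differed between the columns of a mouse. In the 6 chow mice the lowest column with at least 1000000 counts stood between 2.80 and 4.60 CPM and the highest between 11.5 and 17.7 CPM. In HFD mouse 18 the columns ran from 4.90 to 25.4 CPM. The areas behind these columns are not known here.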
